A study of Mus musculus with 6 samples.

Results

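The proteasome is the large protease that degrades ubiquitin-tagged proteins in the cytosol and nucleus, and its subunit genes were examined here in flow-sorted leukaemic progenitors of mice. The genes were chosen by name: every gene with a single platform symbol that begins with Psm, a letter from a to g and a number, with 1 probe set per gene, the brightest on average over the 6 arrays on the log2 scale. The pattern matched 49 of 18194 genes. Of these, Psmc3ip, a meiotic recombination cofactor, and Psme3ip1, a protein that binds the activator PA28 gamma, encode no proteasome subunit or assembly factor and are set apart. The other 47 genes comprise 15 genes of the 20S core, 20 of the 19S regulatory group, 3 of the immunoproteasome and 1 of the thymoproteasome. There were also 4 of activators and the inhibitor, and 4 Psmg genes of assembly chaperones. The 19S group includes genes of assembly chaperones of the 19S particle too, such as Psmd5 and Psmd9. Psme2, a partner of Psme1, is not analysed here because its probe set carries a pair of gene symbols.

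RNA was measured on 6 Affymetrix arrays, 3 per genotype. Both groups were LGMP, marrow cells which the labels define as CD34+ and FcgRII/III+, YFP+, cKit+, Sca1- and negative for lineage markers. They came from wild-type recipients, irradiated at 12 weeks of age, that had received 50000 cKit+ cells carrying MLL-AF9-IRES-YFP together with 250000 wild-type support marrow cells. MLL-AF9 is an oncogenic fusion of acute myeloid leukaemia. The donor genotype was EF1α wt/wt ROSA wt/CreERT2 in the WT group (n = 3) and EF1α wt/lsl-N1-IC ROSA wt/CreERT2 in the N1-IC group (n = 3), where lsl-N1-IC is a Notch1 intracellular domain that the tamoxifen-activated recombinase CreERT2 can switch on. Starting 4 weeks after transplantation, tamoxifen (0.2 mg for each g of weight) was injected 2 times in all mice, and cells were taken 6 days after the second. Thus the WT group also carried the fusion and CreERT2 and also received tamoxifen. Because all WT samples were labelled male and all N1-IC samples female, genotype and sex cannot be told apart. The labels do not say how many animals stand behind a sample, so p-values measure only the spread between these samples.

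The proteasome has a barrel-shaped 20S core of stacked rings. The outer rings are built of alpha subunits, which gate the entrance, and the inner rings of beta subunits, among them the proteolytic ones. A 19S particle binds substrates, removes ubiquitin and uses ATPases to unfold the protein and feed it into the barrel. In haematopoietic cells, and in others under interferon, the subunits encoded by Psmb5, Psmb6 and Psmb7 can be replaced by those of Psmb8, Psmb9 and Psmb10, which form the immunoproteasome and alter the peptides available for MHC class I.

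The genes of the immunoproteasome had the lowest median difference of the 3 main groups, and the DNA before their start sites is shown because interferon-activated regulators of such genes are known to act near start sites. Sequences are from RefSeq, build GRCm38.p6, written 5′ to 3′ on the strand of the gene, and end at the base before its start. The Psmb8 stretch lies at chr17:34197945-34198194 on the plus strand, the Psmb9 stretch at chr17:34187331-34187555 on the minus strand and the Psmb10 stretch at chr8:105938393-105938642 on the minus strand. The stretch of Psmb9 has 225 bases, because Tap1, the gene of a peptide transporter for MHC class I, starts on its far side and runs the other way. Psmb8 lies beyond Tap1 on the same chromosome. Capitals mark matches to the motifs named after the sequences.
Psmb8: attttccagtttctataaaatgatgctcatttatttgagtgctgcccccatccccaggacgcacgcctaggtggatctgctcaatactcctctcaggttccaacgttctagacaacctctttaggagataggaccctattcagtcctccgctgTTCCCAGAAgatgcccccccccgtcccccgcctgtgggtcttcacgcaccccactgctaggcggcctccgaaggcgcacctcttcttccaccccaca
Psmb9: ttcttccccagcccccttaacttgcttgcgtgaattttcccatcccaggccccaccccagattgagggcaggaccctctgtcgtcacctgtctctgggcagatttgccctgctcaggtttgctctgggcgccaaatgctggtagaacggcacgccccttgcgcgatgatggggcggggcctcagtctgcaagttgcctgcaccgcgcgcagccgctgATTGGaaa
Psmb10: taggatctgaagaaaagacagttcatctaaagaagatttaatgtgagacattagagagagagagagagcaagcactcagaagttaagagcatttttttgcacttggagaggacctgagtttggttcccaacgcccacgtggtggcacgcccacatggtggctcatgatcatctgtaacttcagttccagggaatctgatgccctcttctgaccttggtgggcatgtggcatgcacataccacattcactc
Motifs were searched on both strands in the 250 bases before the start: TTCNNNGAA, the STAT gamma-activated site, GAAANNGAA, an interferon response element, TGACNNNGC, a core of the antioxidant response element to which the proteasome gene activator NRF1 can bind, and CCAAT, the box bound by NF-Y. Psmb8 held TTCCCAGAA from 97 to 89 bases before its start. Psmb9 held ATTGG, the CCAAT box on the other strand, from 8 to 4 bases before its start, and the stretch of Psmb10 held none of the 4 motifs in this window. No marked match overlaps another motif. RefSeq windows were found for 39 of the 47 genes, with 41 windows. Of these 14 held CCAAT, against 33.8% of all 32851 windows, 5 held TGACNNNGC, against 10.2%, 3 held GAAANNGAA, against 7.1%, and 2 held TTCNNNGAA, against 7.0%. A match is a description of letters and not of binding.

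Several arrays differed in ways that the genotype labels do not describe. WT replicate 2 stood apart in its list of erythroid marker genes, with a mean of 9.29 log2 units against 4.88 to 6.09 on the other arrays, and in Xist, at 10.71 against 5.64 and 5.42 on the other arrays of the male WT group. The Y-linked Eif2s3y lay at 10.34 on WT replicate 2, against 11.31 and 11.26 on the other WT arrays. WT replicate 1 had a mean of 7.47 over late granulocyte genes against 9.74 to 10.44 on the other arrays. Of the genes of the sort gate, Kit lay at 10.24 to 10.76, Cd34 at 11.33 to 11.69 in WT against 10.05 to 11.28 in N1-IC, and Fcgr3 at 12.60 to 13.12, and of the granule genes of such progenitors Mpo, Elane, Prtn3 and Ctsg at 13.59 to 14.11 on all arrays. Cd34 was thus lower on every N1-IC array (log2 fold change -0.72 ± 0.32, limma adjusted p = 0.618), and its part in the results was not tested. The T and B cell lists had means of 4.80 to 5.77, near the array medians of 5.63 to 5.67. The B cell mean covers unlike genes: 5 of 7 lay below the array median on all arrays. The others were Cd79b, at 10.92 to 11.47, and Vpreb1, at 5.90 to 7.62. Since LGMP were measured in bulk, fewer cells of a type and less RNA per cell cannot be told apart.

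The genotypes were compared to ask whether proteasome gene expression differed between the genotypes. In limma, 0 of the 47 genes passed an adjusted p under 0.05, where 0.0055% of all genes (1 of 18194) passed, and the smallest adjusted p among the members was 0.618. At an unadjusted p under 0.05 there were 4 members, all with a lower mean in N1-IC: Psma8, Psme4, Psmd11 and Psmg2. That is 8.51% of the members against 7.98% of all genes, of which 3.84% were lower and 4.14% higher in N1-IC. The count of 0 held under each alternative setting run. Mean differences were small: the median was -0.12 on the log2 scale over the 47 genes and 0.01 over all genes, and the median size was 0.14 in both. For 40 of the 47 members the 95% interval of the difference, without correction for the number of genes, lay within 0.5 log2 units of 0. Leaving Psma8 aside, the bounds of the other members lay between -0.645, for Psmg3, and 0.555, for Psma5. These genes were measured well above the middle of the arrays, with 44 of 47 above the upper quartile on all 6, and their median SD within groups was 0.099 log2 units against 0.17 over all genes.

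The direction was uneven. A lower mean in N1-IC was found for 32 of the 47 genes, against 47.4% of all genes and 55.3% of genes whose mean reached that of the median gene. The 3 N1-IC arrays lay below the 3 WT arrays for 11 members and above them for 0, where 6.52% of all genes were lower and 8.32% higher without overlap. For genes whose mean reached the median gene these shares were 8.79% and 6.9%. The 11 were the core genes Psma4, Psma8, Psmb4 and Psmb6, the immunoproteasome gene Psmb9, the regulatory genes Psmc6, Psmd1, Psmd11 and Psmd12, the activator gene Psme4 and the assembly gene Psmg2. Arrays were also centred on their medians over the 18194 genes, which are not the array medians over all probe sets given above. This moved the median over all genes from 0.01 to 0.08. The count was then 29 lower means, 8 lower without overlap and 3 higher without overlap. The shares of all genes in the same setting were 33.9%, 3.84% and 12.3%. Without WT replicate 3, 23 members were lower and 7 higher without overlap, against 15.3% and 18.8% of all genes. Without N1-IC replicate 3 it was 18 lower, against 13.1%.

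**Figure D1:**
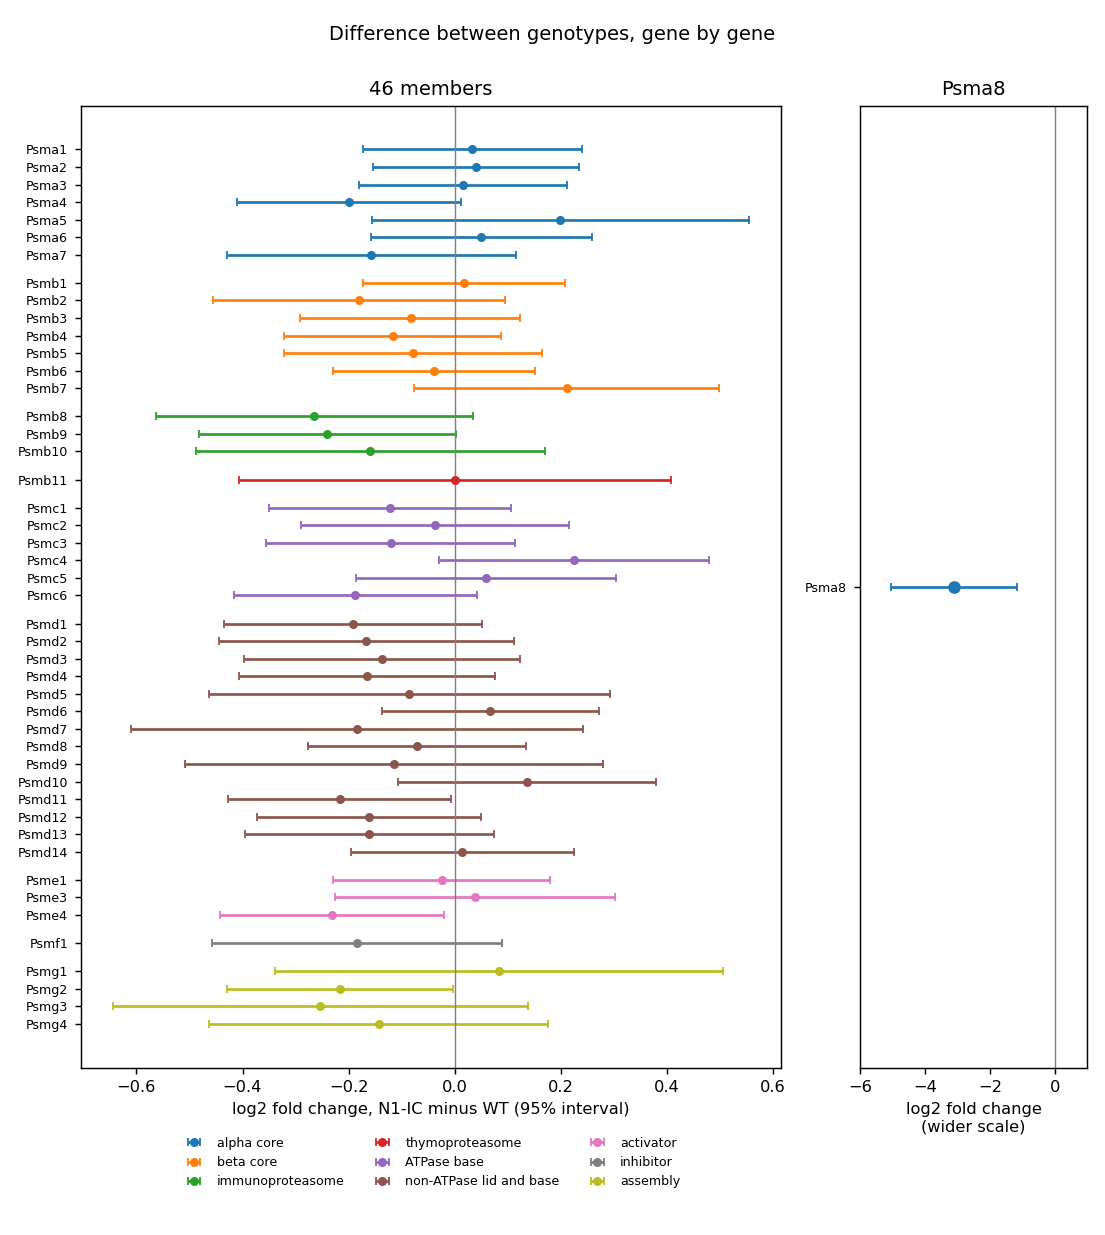
Log2 fold change of each of the 47 proteasome genes, N1-IC minus WT, with limma's 95% interval, coloured by class; Psma8 has its own, wider axis. Of the 46 genes on the main axis 43 have intervals that include 0, and the means lie between -0.27 and 0.23.

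All 3 immunoproteasome genes had a lower mean in N1-IC, and none passed. Psmb8, which encodes the beta5i subunit with chymotrypsin-like activity, had log2 values of 12.28, 12.14 and 11.98 on WT arrays 1, 2 and 3 and of 11.77, 11.81 and 12.03 on N1-IC arrays 1, 2 and 3. N1-IC replicate 3 lay above WT replicate 3, so the groups overlapped. The means were 12.13 ± 0.152 and 11.87 ± 0.142 (SD, n = 3), and the log2 fold change was -0.27 ± 0.12 (standard error; limma adjusted p = 0.618). Psmb9, which encodes beta1i, had values of 12.02, 11.92 and 11.85 in WT against 11.56, 11.75 and 11.75 in N1-IC. Here the groups did not overlap, the closest arrays being WT replicate 3 and N1-IC replicate 3, and the log2 fold change was -0.24 ± 0.10 (95% interval -0.48 to 0.002, limma adjusted p = 0.618). For Psmb10, the gene of beta2i, the WT values were 12.36, 12.25 and 11.94 and the N1-IC values 11.97, 11.97 and 12.14. WT replicate 3 was the lowest of the 6 arrays, and the log2 fold change was -0.16 ± 0.13 (limma adjusted p = 0.709). In all 3 genes WT replicate 1 was the highest array, and it was also the array with low late granulocyte genes. All 11 late granulocyte genes measured had a higher mean in N1-IC, with list means of 7.47 to 10.24 on WT arrays and 9.92 to 10.44 on N1-IC arrays and 0 genes below the array median on all arrays, and their part in the result was not tested. With WT replicate 1 left out, the median of the 3 immunoproteasome genes went from -0.24 to -0.19 on the log2 scale, and the Psmb10 value to -0.07.

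Psmb5, Psmb6 and Psmb7, which encode the constitutive counterparts, were in different directions. Psmb5 had values of 12.52, 12.59 and 12.54 in WT against 12.49, 12.33 and 12.60 in N1-IC, giving a log2 fold change of -0.08 ± 0.10 with overlapping groups. Psmb6 had 12.98, 13.05 and 12.99 in WT and 12.97, 12.97 and 12.96 in N1-IC. These groups did not overlap, yet their means were only 0.04 apart, at 13.00 and 12.97. Psmb7 had 12.14, 12.19 and 12.47 in WT and 12.57, 12.44 and 12.41 in N1-IC, and its log2 fold change was 0.21 ± 0.12. WT replicate 3 lay among the N1-IC arrays there. The log2 difference between each immunoproteasome gene and its counterpart within an array was then compared between groups, in 3 pairs. The N1-IC minus WT value of this difference was -0.19 for Psmb8 and Psmb5 (exact two-sided permutation p = 0.2), -0.20 for Psmb9 and Psmb6 (exact p = 0.1) and -0.37 for Psmb10 and Psmb7 (exact p = 0.3), each with an exact adjusted p of 0.3 over the pairs. Groups of 3 arrays cannot give a p below 0.1. Psmb11, the thymus form, lay at 3.62 to 4.17 on all arrays, below every array median.

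**Figure D2:**
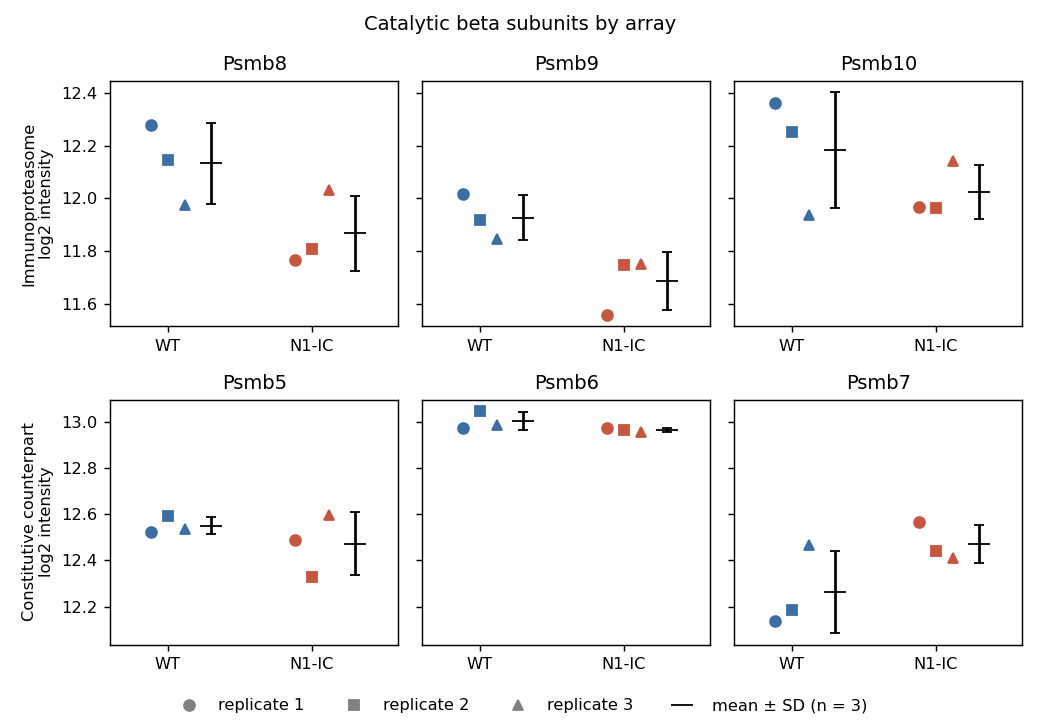
Log2 intensity of the immunoproteasome genes (upper row) and of their constitutive counterparts (lower row) on each array, with mean and SD of 3 arrays. Psmb9 is lower on every N1-IC array, at 11.56 to 11.75 against 11.85 to 12.02, while WT replicate 3 lies within or next to the N1-IC values for Psmb8, Psmb10 and Psmb7.

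Genes that act with the immunoproteasome were read beside it. Of 11 measured genes of MHC class I antigen processing 0 passed, 6 had a lower and 5 a higher mean, and the list median was -0.01. Tap1, which shares the stretch shown above with Psmb9, had WT values of 10.45, 10.51 and 10.17 and N1-IC values of 9.55, 10.25 and 10.06, for a log2 fold change of -0.43 ± 0.20 with overlapping groups. Tap2, its partner in the transporter, had -0.41 ± 0.23 and also overlapped, and H2-D1, H2-K1 and Erap1 had -0.14, -0.09 and 0.19. Among 17 interferon-stimulated genes 11 had a higher and 6 a lower mean, and 0 passed. On every N1-IC array 5 were higher and 1 lower, where 8.32% and 6.52% of all genes were. At an unadjusted limma p under 0.05 there were 6 of the 17, 4 higher and 2 lower, against 7.98% of all genes. The antiviral genes Oasl2 and Oas2 had log2 fold changes of 0.85 and 0.92 and Mx1 had -0.84. On WT arrays Oasl2 lay at 5.47 to 5.79 and Oas2 at 5.64 to 6.375, near the array medians of 5.63 to 5.67. Ifit1 at 4.36 to 4.84 and Rtp4 at 4.71 to 5.54 lay below the array medians on WT arrays. The size of these increases is therefore uncertain. The median of this mixed list was 0.15, and its relation to the immunoproteasome genes was not tested. Of 14 interferon receptor, signalling and transcription factor genes 7 were lower, 7 higher and 0 passed. Irf8, a myeloid regulator, had -0.48 ± 0.21, the receptor gene Ifngr2 -0.45 ± 0.16, Stat2 0.60 ± 0.27 and Irf7 0.64 ± 0.29. Ifngr2 was lower on every N1-IC array (limma unadjusted p = 0.0272, adjusted p = 0.618), while the groups overlapped for Irf8, Stat2 and Irf7. Irf7 lay at 5.68 to 6.54 on WT arrays, near the array medians.

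In the 20S core the alpha and beta genes stood on both sides of 0. Of 15 core genes 8 had a lower and 7 a higher mean, with a median of -0.04 on the log2 scale, and the median was 0.03 with arrays centred on their medians. The alpha genes had 3 lower and 5 higher means. Psma8 differed most. It encodes an alpha4-type subunit known from the proteasome of male germ cells. Its WT values were 9.38, 6.74 and 8.38 and its N1-IC values 4.26, 6.29 and 4.66. All WT arrays were above all N1-IC arrays, though replicate 2 of each group came near the other group, at 6.74 and 6.29. The means were 8.17 ± 1.33 and 5.07 ± 1.07 (SD, n = 3) and the log2 fold change was -3.10 ± 0.80, with an unadjusted p of 0.00758 and a limma adjusted p of 0.618. N1-IC replicates 1 and 3 lay below the array medians. Without detection calls it is unknown whether those values are signal, so the fold change has no firm size. With single arrays left out it was -3.81 to -2.50, and 0 of these passed. The gene has 1 probe set, and since the labels put males and females in different groups, its value cannot be assigned to genotype or sex.

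Psma7, which encodes the alpha4 subunit that Psma8 replaces in germ cells, had values of 12.76, 12.95 and 12.61 in WT against 12.61, 12.58 and 12.65 in N1-IC. The groups overlapped at WT replicate 3, and the log2 fold change was -0.16 ± 0.11. Psma4, the gene of alpha3, had 12.05, 12.14 and 11.97 in WT and 11.88, 11.81 and 11.88 in N1-IC, with no overlap and a log2 fold change of -0.20 ± 0.09 (limma adjusted p = 0.618). The remaining alpha genes Psma1, Psma2, Psma3, Psma5 and Psma6 had log2 fold changes of 0.02 to 0.20. The 7 constitutive beta genes had 5 lower and 2 higher means. Psmb2 had values of 12.35, 12.53 and 12.19 in WT against 12.13, 12.17 and 12.24 in N1-IC, giving a log2 fold change of -0.18 ± 0.11 with WT replicate 3 inside the N1-IC range. Psmb4 had 12.23, 12.36 and 12.22 in WT and 12.15, 12.16 and 12.15 in N1-IC, with no overlap and -0.12 ± 0.08. Psmb1 and Psmb3 had 0.02 and -0.08.

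**Figure D3:**
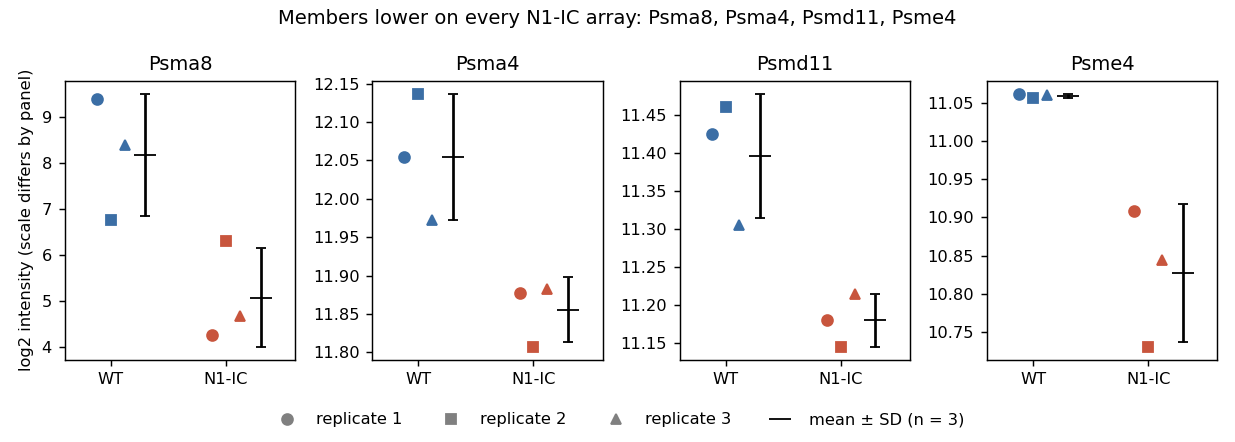
Log2 intensity on each array, with mean and SD of 3 arrays, for 4 of the 11 genes that were lower on every N1-IC array; each panel has its own scale. Psma8 spans 4.26 to 9.38 log2 units, while Psma4, Psmd11 and Psme4 each differ between group means by 0.20 to 0.23.

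Most genes of the 19S group, its chaperones included, had a lower mean in N1-IC. They were 15 of 20, beside 47.4% of all genes and 55.3% of genes whose mean reached that of the median gene, and 0 passed. Of the 20 genes, 4 (20%) were lower without overlap, beside 6.52% of all genes and 8.79% of genes reaching the median gene. The median was -0.12 on the log2 scale, -0.02 with the mean of probe sets and -0.05 with arrays centred on their medians. Psmc1 to Psmc6 encode the ATPase ring that unfolds substrates, and 4 of these 6 genes had a lower mean. Psmc6 had values of 12.14, 12.20 and 11.99 in WT against 11.87, 11.92 and 11.98 in N1-IC, with no overlap and a log2 fold change of -0.19 ± 0.09. Psmc4 had a higher mean, at 11.60, 11.50 and 11.78 in WT and 11.87, 11.78 and 11.91 in N1-IC, with 0.23 ± 0.10. Its other probe set, at 11.67, 11.88 and 11.61 in WT and 11.54, 11.50 and 11.58 in N1-IC, had -0.18 without overlap, so the probe sets of Psmc4 disagreed. Psmc1 had 11.34, 11.46 and 11.28 in WT and 11.14, 11.29 and 11.28 in N1-IC, with -0.12 ± 0.09. Psmc2, Psmc3 and Psmc5 had -0.04, -0.12 and 0.06.

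Of the 14 Psmd genes, which encode the scaffold, ubiquitin receptor and deubiquitinating parts of the 19S particle and some of its assembly chaperones, 11 had a lower mean. Psmd11, the gene of the lid subunit Rpn6, had values of 11.43, 11.46 and 11.31 in WT against 11.18, 11.15 and 11.22 in N1-IC. The groups did not overlap, and the log2 fold change was -0.22 ± 0.09 (unadjusted p = 0.0451, limma adjusted p = 0.618). Its other 7 probe sets had log2 fold changes from -0.38 to 0.36, 3 of them negative. Those at -0.38 and -0.20 were also lower on every N1-IC array, at 9.85 to 10.47 and 8.79 to 9.12. Those at 0.36 and 0.155 were higher on every N1-IC array, at 6.07 to 6.64 and 2.43 to 2.71. Those at 0.24 and 0.155 lay below the array median on all 6 arrays. With the mean of all its probe sets, dim ones included, the value was -0.02. Psmd1, the gene of the large scaffold Rpn2, had 11.80, 11.99 and 11.72 in WT and 11.67, 11.64 and 11.63 in N1-IC, with no overlap and -0.19 ± 0.10. Psmd12, the gene of the lid subunit Rpn5, had 11.23, 11.37 and 11.21 in WT and 11.08, 11.13 and 11.12 in N1-IC, again with no overlap, and -0.16 ± 0.09. The ubiquitin receptor gene Psmd4 and the deubiquitinase gene Psmd14 had -0.17 and 0.01. Psmd2, Psmd3, Psmd7, Psmd8 and Psmd13 had -0.18 to -0.07 and Psmd6 had 0.07. The chaperone genes Psmd5 and Psmd9 had -0.09 and -0.12, and Psmd10, which encodes gankyrin and lies on chromosome X, had 0.14 ± 0.10, with N1-IC female and WT male.

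**Figure D4:**
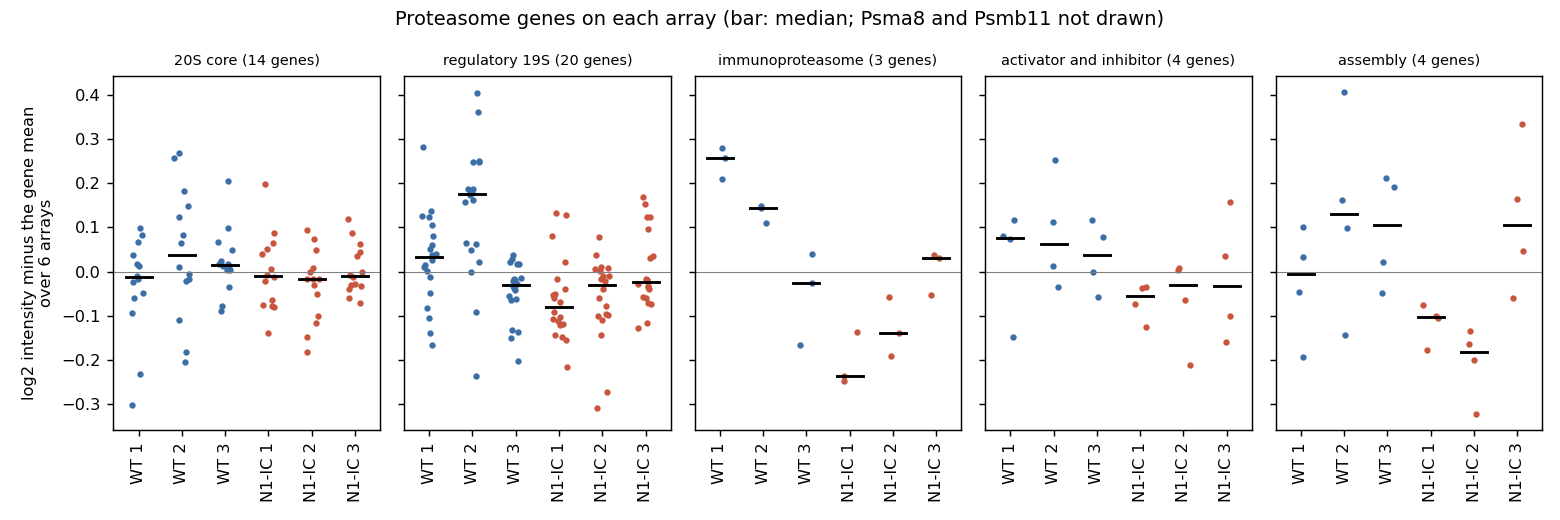
Log2 intensity of each gene minus its mean over the 6 arrays, by array and group of genes, with bars at the medians; Psma8 and Psmb11 are not drawn. The medians of the regulatory genes are 0.18 on WT replicate 2 and between -0.08 and 0.03 on the other arrays, and those of the immunoproteasome genes run from 0.26 on WT replicate 1 to -0.24 on N1-IC replicate 1.

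The array by which the regulatory genes stood highest was WT replicate 2. On it, 17 of the 20 regulatory genes lay above their own mean over the 6 arrays, against 14 on WT replicate 1, 5 on WT replicate 3 and 4, 6 and 7 on the N1-IC arrays. Over the 47 genes WT replicate 2 was the highest WT array for 27 and WT replicate 3 the lowest WT array for 25. WT replicate 2 is the array with high erythroid genes: 9 of the 10 had a lower mean in N1-IC, the list means were 4.88 to 9.29 on WT arrays and 5.05 to 5.97 on N1-IC arrays, and their part in the result was not tested. Without WT replicate 2 the regulatory median was -0.06 on the log2 scale, and without WT replicate 3 it was -0.18. Among the N1-IC arrays replicate 3 was the highest for 25 of the 47 genes.

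Activators, the inhibitor and assembly chaperones gave no call. Psme1, the gene of PA28 alpha, which is induced with the immunoproteasome, had values of 13.35, 13.24 and 13.28 in WT against 13.20, 13.28 and 13.31 in N1-IC. These overlapped, and the log2 fold change was -0.02 ± 0.08 (95% interval -0.23 to 0.18). Psme3, the gene of the nuclear activator PA28 gamma, had 11.64, 11.80 and 11.87 in WT and 11.75, 11.72 and 11.95 in N1-IC, with 0.04 ± 0.11. Psme4 encodes PA200, a large nuclear activator. Its WT arrays lay within 0.01 of each other, at 11.06, and its N1-IC arrays at 10.91, 10.73 and 10.84. This gave a log2 fold change of -0.23 ± 0.09 (unadjusted p = 0.0361, limma adjusted p = 0.618). The other 5 probe sets of Psme4 had -0.08 to 0.34, and their mean with the brightest was 0.08, so the direction depended on the probe set. Psmf1, the gene of the inhibitor PI31, had 8.87, 9.04 and 8.73 in WT and 8.66, 8.80 and 8.63 in N1-IC, with overlap and -0.18 ± 0.11.

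Psmg1 to Psmg4 encode the chaperones that assemble the alpha ring. Psmg2 had values of 10.77, 10.84 and 10.93 in WT against 10.64, 10.58 and 10.68 in N1-IC, with no overlap and a log2 fold change of -0.22 ± 0.09 (unadjusted p = 0.0479, limma adjusted p = 0.618). Other probe sets of Psmg2 had -0.003, at 9.23 to 9.61, and -0.18, below the array median on all 6 arrays, both with overlap. With the mean of its probe sets the Psmg2 value was -0.13. Its partner Psmg1 had 0.08 ± 0.17. Psmg3 had 10.96, 11.41 and 11.03 in WT and 10.90, 10.69 and 11.05 in N1-IC, with -0.25 ± 0.16. Psmg4 had 10.59, 10.65 and 10.44 in WT and 10.31, 10.29 and 10.65 in N1-IC, with -0.14 ± 0.13. N1-IC replicate 3 lay inside the WT range of Psmg3 and at the upper end of that of Psmg4, which left the groups overlapping.

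Probe sets of the same gene often disagreed in sign. The 47 genes had 100 probe sets, and 26 genes had more than 1. Of the 53 probe sets that were not the brightest of their gene, 26 had the sign of the brightest and 27 the opposite sign. Many of these were dim. Among the 33 that reached the array median on all 6 arrays, 18 had the same and 15 the opposite sign. When all 45101 probe sets were fitted, 0 of the 100 passed in limma and the smallest adjusted p was 0.639.

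**Figure D5:**
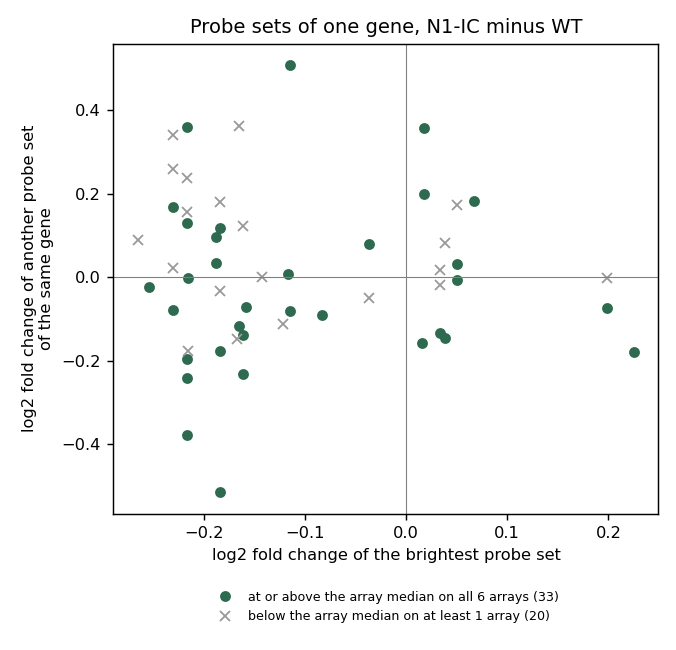
Log2 fold change (N1-IC minus WT) of the 53 further probe sets against that of the brightest probe set of the same gene; filled points reached the array median on all 6 arrays. Points fall in all 4 quadrants, with 27 of 53 opposite in sign.

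Other genes of the pathway showed no difference past the threshold either. Over 4 lists of genes of the ubiquitin-proteasome pathway with 42 measured members, 0 passed in limma and 0 had an unadjusted p under 0.05. Of 9 proteasome partners 4 had a lower and 5 a higher mean: the proteasome-bound deubiquitinase gene Usp14 had a log2 fold change of 0.39 ± 0.18, the shuttling factor gene Akirin2 -0.11 and the lid subunit gene Sem1 0.05. Of 10 genes that regulate proteasome transcription, 5 were lower and 5 higher. Nfe2l2, the gene of the antioxidant factor NRF2, had -0.19 ± 0.10 with no overlap, its inhibitor gene Keap1 had -0.12, and Ngly1, whose product processes NRF1, had 0.24 ± 0.13. Of 9 measured genes for activating and conjugating enzymes of ubiquitin and related modifiers, with no ubiquitin gene among them, 3 were lower and 6 higher, among them the conjugating enzyme genes Cdc34, with -0.22 ± 0.11, and Ube2d3, with 0.18 ± 0.09 and no overlap. Of 14 genes that deliver substrates 9 were lower and 5 higher: the unfoldase gene Vcp had -0.15 and its cofactor gene Ufd1 0.19. The medians of the 4 lists were 0.03, -0.03, 0.08 and -0.03 on the log2 scale.

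Psmc3ip and Psme3ip1, the matches set apart, had log2 fold changes of -0.31 ± 0.16 and -0.17 ± 0.12, with overlapping groups and adjusted p values in limma of 0.632 and 0.67.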

How the data were processed

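RNA of 3 WT and 3 N1-IC samples (5 ng of total RNA each, amplified with the NuGEN Ovation system) was hybridised to Affymetrix arrays, per the labels' protocols. The deposited values are intensities on a linear scale, normalized by the authors; the submitters' processing notes name RMA, with no version. They ran from 3.60 to 24044, with array medians of 49.6 to 51.0. Normalization to a common distribution means that a change is relative to the rest of the array. Log2 was taken with no offset.

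Of 45101 probe sets, 34958 had 1 gene symbol, 932 several and 9211 none. Each gene was represented by its brightest probe set, which gave 18194 genes. N1-IC was compared with WT over all of them in limma 3.58.1 (R 4.3.3; lmFit and eBayes, no block) with Benjamini-Hochberg adjustment at 0.05. Errors are SDs over 3 arrays or limma's moderated standard errors. The fit was tested on simulated data.

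The members and gene lists were chosen with earlier results of these data known. All members may be named. Values of every array are given for the catalytic subunits, Psme1 and the 3 members with the smallest p in each class. Of each other list up to 5 genes with the smallest p are named. Markers of erythroid, mast, granulocyte, T, B, NK, monocyte and dendritic cells were read as list means; those lists not printed in the report had means of 6.04 to 7.58 (mast cell and basophil), 5.94 to 6.88 (NK), 7.88 to 8.18 (monocyte and macrophage) and 4.70 to 5.00 (dendritic) log2 units by array. Alternatives were a variance trend, a robust prior, array weights, further normalization or centring, means of probe sets, other probe sets, a filter at the median level, a replicate block, each array left out, X- and Y-linked genes left out and thresholds of 0.1 and 0.01.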

Additional observations from a re-analysis of the deposited data

How the results depend on the processing

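The number of arrays limits the precision. Under every alternative run 0 of the proteasome genes passed, including each array left out (smallest adjusted p of a member 0.317, without WT replicate 3). Over all genes the count of 1 became 3 with a variance trend, 2 with array weights, 5 with the mean of probe sets, 2 for genes reaching the median level, 4 at a threshold of 0.1 and 0 without X- and Y-linked genes. Leaving out 1 array gave 0 to 5, with 5 without WT replicate 2 and 0 without WT replicate 3. With the replicate number as a block it was 0. Same-numbered samples correlated at 0.009, 0.061 and -0.11 in their deviations, and samples with unlike numbers at -0.092 to 0.093. No pairing by number was visible, but so few arrays cannot exclude one. The core median was -0.039, and 0.03 with arrays centred on their medians; its range over single arrays left out was -0.053 to -0.007. For the regulatory genes that range was -0.176 to -0.058 and for the immunoproteasome genes -0.281 to -0.176. With the mean of probe sets these medians were -0.019 and -0.159, and with centring -0.052 and -0.171.

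Among the 24 members with values by array, signs turned in these cases, each with an adjusted p above 0.63, and the cause was not tested; signs of other members turned too and are not listed. Centring gave 0.03 for Psmb6 and 0.045 for Psme1. The mean of probe sets gave 0.081 for Psme4 and -0.008 for Psme3. Single arrays left out gave -0.048 to 0.006 for Psme1 and -0.032 to 0.086 for Psme3. Other probe sets gave 0.008 for Psmb4, 0.09 for Psmb8, -0.179 for Psmc4, 0.095 and 0.034 for Psmc6, 0.238, 0.155, 0.359 and 0.13 for Psmd11, -0.145 for Psme3, 0.26, 0.34, 0.023 and 0.169 for Psme4, and 0.001 for Psmg4. Some of these were dim. Those of Psmb8 and Psmg4 lay below the array median on all 6 arrays. So did those of Psmd11 at 0.238 and 0.155 and of Psme4 at 0.26 and 0.023. The Psme4 probe set at 0.34 lay below it on 3 arrays. Counts of members that did not overlap, whose alternatives were added after seeing the data, ranged from 11 to 23 lower and from 0 to 7 higher over single arrays left out, beside 10.1% to 15.3% and 12.4% to 18.8% of all genes.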
